A study of Mus musculus with 6 samples.

Results

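The lincRNA probes described here are the 2548 of the 16251 probes for long intergenic non-coding RNAs on the array that gave a signal well above background in the liver of every one of 6 mice. They were chosen from the readout itself, by the detection flag that the scanner software sets for each spot, so that their being measurable is the criterion and not a result. They made up 15.7% of the lincRNA probes, on an array of 55681 different probes that are not controls. The mice were male B6C3F1 hybrids aged 7 weeks. The 3 control mice were given corn oil, and the 3 TCE mice were given trichloroethylene (TCE), a chlorinated solvent, in corn oil at 1000 mg/kg body weight, by mouth once a day for 5 days. Each liver's RNA carried 1 dye and had a separate array. Signals are on the log2 scale after quantile normalization over all probes, so that a difference of 1 is a 2-fold change.

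LincRNAs are transcripts without a protein product that lie between protein-coding genes. They are usually spliced and polyadenylated like messenger RNAs, many are present at low levels and in few tissues, and some act on chromatin or on the processing of other RNAs. Well-studied members include Neat1, which builds the nuclear bodies called paraspeckles, Malat1 (also Neat2), an abundant RNA of nuclear speckles, and Tug1. The array assigns its lincRNA probes to genomic intervals of the mouse build mm9 with a strand, which says where a probe was designed and not that a transcript was defined there.

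Every lincRNA probe is a single 60-base oligonucleotide. The sequences below, read 5′ to 3′ from the deposited annotation, are those on which the results turn. Capitals mark the longest run that is identical, in the same orientation, to a probe of the array outside the lincRNA class, for runs of 20 bases or more. The first set holds the probes that were up-regulated past the threshold: 3 neighbours on the forward strand of chromosome 9, shown because the last of them is identical to the probe of the glutathione S-transferase gene Gsta1, and 1 probe each on chromosomes 19 (forward strand) and 14 (reverse strand).
A_30_P01020518, chr9:78116774-78116833: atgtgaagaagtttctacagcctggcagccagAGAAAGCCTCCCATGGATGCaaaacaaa
A_30_P01018914, chr9:78116834-78116893: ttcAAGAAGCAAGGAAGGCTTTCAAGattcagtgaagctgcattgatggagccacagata
A_30_P01028766, chr9:78116894-78116953: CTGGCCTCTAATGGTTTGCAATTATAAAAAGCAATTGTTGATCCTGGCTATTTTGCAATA
A_30_P01021780, chr19:61274302-61274361: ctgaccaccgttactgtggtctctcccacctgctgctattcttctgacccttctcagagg
A_30_P01032418, chr14:55679178-55679237: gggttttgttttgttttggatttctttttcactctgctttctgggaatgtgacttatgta

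The second set holds the probes that were down-regulated past the threshold. The first 5 lie on the reverse strand of chromosome 17 within 319 bases, and are shown because they fell together. The next 4 lie on the forward strand of chromosome 5, the reverse strand of chromosome 7 and, on chromosome 6, the forward and then the reverse strand. All 9 share no such run with a probe outside the class.
A_30_P01019750, chr17:32044827-32044886: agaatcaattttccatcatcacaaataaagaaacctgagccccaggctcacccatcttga
A_30_P01023749, chr17:32044887-32044946: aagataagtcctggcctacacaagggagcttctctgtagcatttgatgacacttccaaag
A_30_P01019807, chr17:32044984-32045043: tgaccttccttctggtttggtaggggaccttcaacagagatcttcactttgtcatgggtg
A_30_P01021437, chr17:32045045-32045104: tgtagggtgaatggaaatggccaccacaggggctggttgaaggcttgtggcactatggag
A_30_P01024995, chr17:32045086-32045145: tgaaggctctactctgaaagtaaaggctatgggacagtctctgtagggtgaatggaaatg
A_30_P01031385, chr5:74489603-74489662: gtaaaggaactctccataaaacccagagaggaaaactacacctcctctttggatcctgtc
A_30_P01022043, chr7:50511687-50511746: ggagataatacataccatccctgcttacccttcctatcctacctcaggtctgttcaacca
A_30_P01029765, chr6:86447637-86447696: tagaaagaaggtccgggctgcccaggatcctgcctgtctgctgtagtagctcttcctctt
A_30_P01027568, chr6:129182657-129182716: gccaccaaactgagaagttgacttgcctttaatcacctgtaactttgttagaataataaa

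The next set shows members that repeat a probe of a named gene, wholly or in part. The first equals the probe of Dancr, a long non-coding RNA, and the second that of Malat1. Then comes a probe that shares 53 bases with a probe of 1300002E11Rik, one that shares 58 bases with a probe of the chromatin remodeling gene Baz1a, which lies on another chromosome, and one that shares 30 bases with the probe of Neat1. The probes on chromosomes 5 and 16 are on the forward strand and the others on the reverse strand.
A_30_P01020357, chr5:74490275-74490334: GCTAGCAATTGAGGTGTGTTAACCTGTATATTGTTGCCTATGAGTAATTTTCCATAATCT
A_30_P01019221, chr19:5795713-5795772: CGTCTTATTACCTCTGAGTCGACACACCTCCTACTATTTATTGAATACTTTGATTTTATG
A_30_P01022784, chr16:21795989-21796048: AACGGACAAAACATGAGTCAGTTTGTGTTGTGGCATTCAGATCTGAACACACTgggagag
A_30_P01024929, chr4:146531518-146531577: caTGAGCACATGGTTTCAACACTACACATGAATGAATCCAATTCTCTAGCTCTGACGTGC
A_30_P01021631, chr19:5842534-5842593: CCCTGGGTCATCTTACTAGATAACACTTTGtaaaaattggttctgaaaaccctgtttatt

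The last set holds 2 of the brightest members, to show how their base composition differs. The first is on the reverse strand and the other on the forward strand. G and C make up 51.7% of the first and 83.3% of the other.
A_30_P01027122, chr1:193897856-193897915: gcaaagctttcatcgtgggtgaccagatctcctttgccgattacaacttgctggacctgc
A_30_P01031448, chr14:78936616-78936675: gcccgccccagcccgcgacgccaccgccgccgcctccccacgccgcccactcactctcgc

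The arrays were of similar quality. Between 3429 and 3920 lincRNA probes were well above background per array, and 0 spots were saturated. One slide and scan held the array of control mouse 1, and another held the remaining 5. Of the hepatocyte markers looked at, 10 of 10 were above background on all 6 arrays, against 0 of 3 fat markers. For each cell type the signals of its markers were summed and the sum is given as its log2, so that the brightest markers weigh most. This value for the erythroid markers, of which 3 of 4 were above background on all arrays, spanned 16.23 to 16.76 in control mice and 14.87 to 16.48 in TCE mice. That of the endothelial markers, 5 of 5 above background, spanned 14.45 to 14.48 and 13.60 to 14.57. The Kupffer cell markers, 4 of 5 above background, summed to 13.29 to 13.37 in controls and 13.00 to 13.29 in TCE mice, and the hepatocyte markers to 20.73 to 20.74 and 20.55 to 20.72, with every TCE mouse below every control in both. Single hepatocyte markers went both ways, with log2 differences from -0.42 for Cps1 to 0.39 for G6pc. Ttr, Tat and Hnf4a were also higher in TCE mice, and every hepatocyte marker had a limma adjusted p of 0.143 or more. None of the listed markers was past the threshold used below, but the erythroid marker Alas2 had a log2 difference of -0.91 (limma adjusted p = 0.0215). Among the stellate cell markers the log2 difference was -1.35 for Lrat (limma adjusted p = 0.0677) and -1.34 for Reln (limma adjusted p = 0.368). It was 0.01 for Dcn, the brightest of them, and -0.05 for Des. The summed signal of the stellate cell markers overlapped between the groups, at 14.36 to 15.05 in controls and 14.59 to 14.88 in TCE mice. The part of these cells in the differences below was not tested, and in whole liver fewer cells of a type and less RNA per cell cannot be told apart.

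Most lincRNA probes of the array had no measurable signal: 10715 (65.9%) were above background on 0 arrays, and 407 were above it on 5 of the 6. At the edge of the selection, the members of the lowest mean signal were A_30_P01033102 at 5.12 and A_30_P01030734 at 5.16. The brightest probes left out were A_30_P01020383, at 4.61 in TCE mouse 2 and 10.87 to 11.82 in the others, and A_30_P01023188, at 4.02 in TCE mouse 2 and 7.95 to 8.44 in the others. Both read low in TCE mouse 2 alone.

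The lincRNA probes were dim beside the other probes that passed the same criterion. Their median log2 signal was 7.34 with quartiles of 6.33 and 9.0, against a median of 9.43 over 18276 other probes above background on all 6 arrays. The range was still wide, from 5.12 to 17.98, and 637 members had a mean signal of 9 or more. The median signal of the class was 7.30, 7.41 and 7.43 in control mice 1, 2 and 3 and 7.31, 7.39 and 7.33 in TCE mice 1, 2 and 3, so that the groups overlapped. Across the members, which share arrays and loci, the correlation r of the signals was 0.967 to 0.979 for pairs of controls, 0.964 to 0.973 for pairs of TCE mice and 0.954 to 0.972 for a control paired with a TCE mouse.

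**Figure D1:**
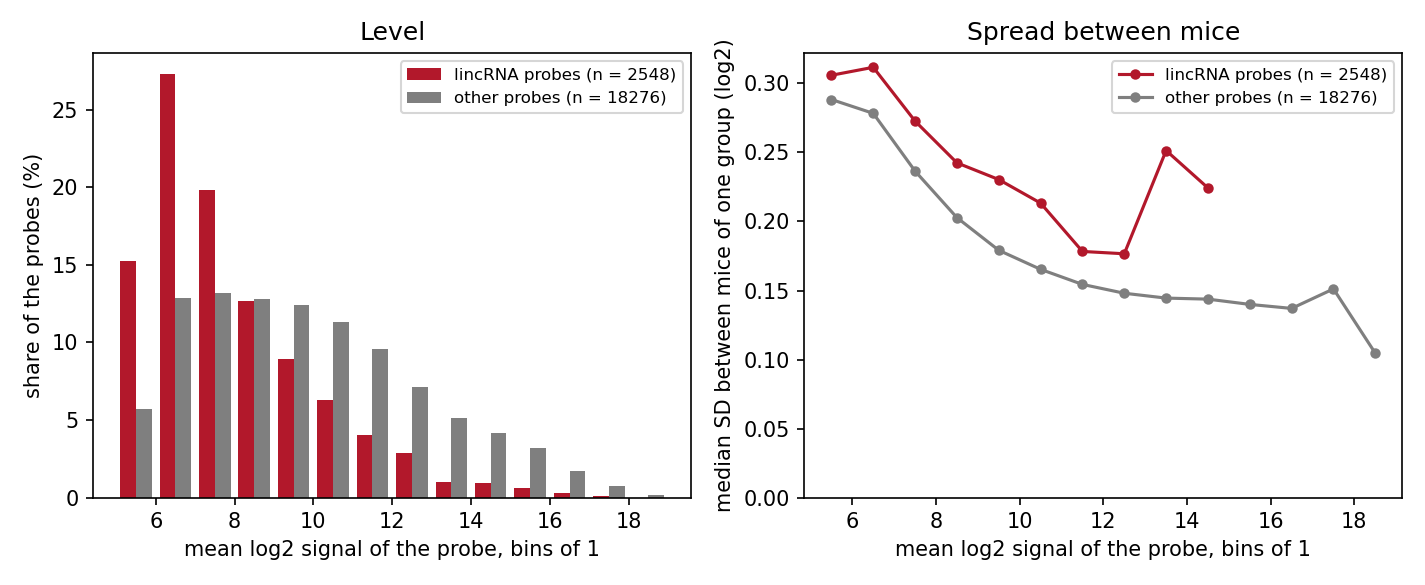
Left, share of the probes in each bin of mean log2 signal, for the 2548 lincRNA probes and for the 18276 other probes above background on all 6 arrays. Right, the median standard deviation between mice of one group in the same bins, where a bin holds 20 probes or more. The lincRNA probes concentrate at signals of 5 to 8, and their points lie above those of the other probes in every bin where both are drawn.

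The brightest member was A_30_P01027122 on chromosome 1. A_30_P01027122 read 18.19, 18.18 and 18.24 in control mice and 17.81, 17.84 and 17.61 in TCE mice. The groups did not overlap, but its log2 difference of -0.45 (SE 0.11, limma adjusted p = 0.122) was not past the threshold. It lies 26.7 kb from the probe of Rcor3, a component of a repressor complex, whose log2 difference was -0.21. Copies of its sequence elsewhere in the genome were not looked up, so that its signal cannot be assigned to a transcript at this position. Also among the brightest were A_30_P01031448 on chromosome 14 (17.11), A_30_P01022075 on chromosome 17 (16.85) and A_30_P01031264 on chromosome 12 (16.64). Their log2 differences lay between -0.08 and 0.07 and both groups overlapped in each.

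Members were richer in G and C than the lincRNA probes left out, with a mean of 47.3% ± 9.57 (SD over probes) against 43.5% ± 7.19. Of the lincRNA probes with a GC content of 60% or more, 44.9% were members, against 6.79% of those under 35% and 13.1% of those from 45% to below 50%. Base composition also sets how strongly a probe hybridizes, and its part in the selection was not tested. The strand made little difference, as 1279 members were designed on the forward strand and 1269 on the reverse strand, from 8199 and 8052 probes.

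A position on mm9 is given for 2518 members, on 20 chromosomes, and 30 are listed as unmapped. The share of a chromosome's lincRNA probes that were members ran from 10.6% on chromosome 9 (78 of 736) to 21.7% on chromosome 14 (152 of 700), with 21.6% on chromosome 19, 21.1% on chromosome 17 and 11.6% on the X chromosome. The median log2 difference per chromosome lay between -0.14 on chromosome 16, where 33.3% of 114 members were higher in TCE mice, and 0.11 on chromosome 1, where 59.2% of 157 members were. Members of one chromosome often belong to one locus, so that these shares are counts of probes and not of transcripts.

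**Figure D2:**
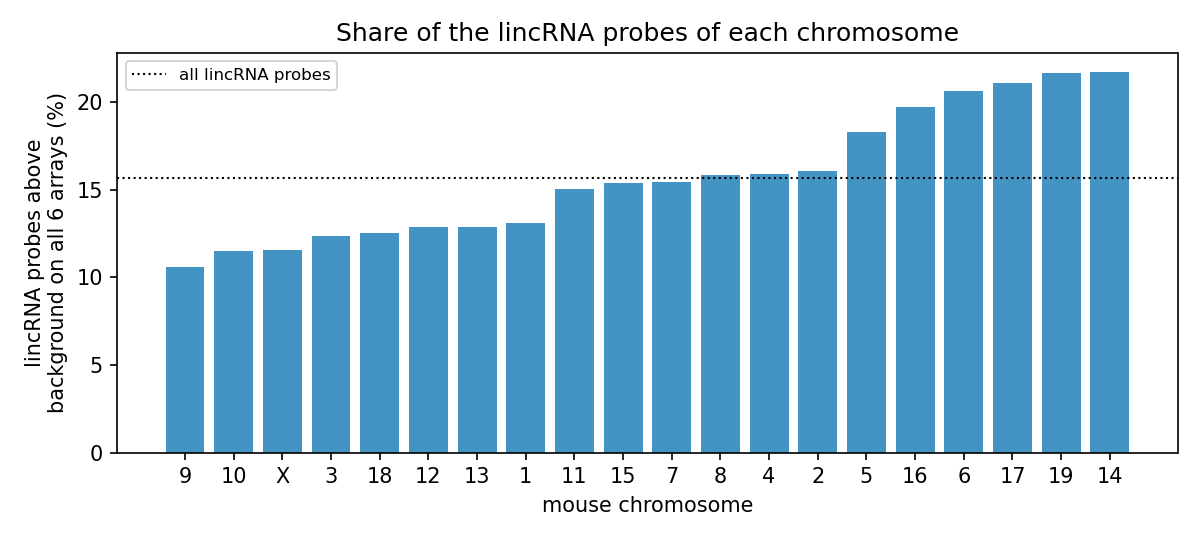
Share of the lincRNA probes of each mouse chromosome that were above background on all 6 arrays, in percent, ordered from low to high. The dotted line marks the share over all lincRNA probes, 15.7%, and the bars run from 10.6% on chromosome 9 to 21.7% on chromosome 14.

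The array tiles 3555 intervals, of which 1284 (36.1%) held at least 1 member. Of 1067 intervals with probes on both strands, 217 had members on the forward strand alone, 227 on the reverse strand alone, 209 on both and 414 on neither. In the 209 intervals with members on both strands, the strands differed by a median of 1.5 in log2 signal, and by more than 2 in 83. The mean log2 differences between TCE and control of the strands were hardly related (Pearson's r = 0.09, Spearman's rho = 0.15 across these intervals) and had the same sign in 113 (54.1%). The strands share the same arrays, and no test was made across intervals.

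Members whose starts lay within 10 kb of the next were joined, which gave 1140 loci. Of these, 619 held a single member, 521 held 2 or more, 306 held 3 or more and 18 held 10 or more. The median span of a locus with several members was 606 bases, so that most of them are short clusters of neighbouring 60-base probes. Within loci of several members the median standard deviation of the log2 differences was 0.20, and the standard deviation between the means of all loci was 0.36. These are unlike measures. The first is a median over loci that held a median of 3 members. The second is a single value over all 1140 loci, with those of a single member. Agreement within loci cannot be read from the gap between them. All members had the same sign in 229 of the 521 loci (44.0%). Among loci of 3 or more members 54 had every member higher and 50 had every member lower in TCE mice.

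The largest locus, with 20 members, lay at chr17:39980297-39985688 and overlaps the probe of Rn18s, the RNA of the small ribosomal subunit. Its 10 forward and 10 reverse members had signals of 10.16 to 15.91. Per mouse the mean of its members was 12.77, 12.82 and 12.96 in controls and 12.79, 12.79 and 12.47 in TCE mice, and 14 of the 20 members were lower in TCE mice, with a median log2 difference of -0.17. None of them was past the threshold. The Rn18s probe itself read 18.23, 18.59 and 16.43 in controls and 18.59, 15.54 and 17.67 in TCE mice, a spread of more than 2 within each group.

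The locus at chr8:72665761-72672515, which overlaps the probe of Borcs8, held 19 members. Their mean was 8.30, 8.50 and 8.43 in controls and 8.48, 8.33 and 8.52 in TCE mice, a mean log2 difference of 0.03. Next came 2 loci of 16 members. One, at chr11:3540203-3548575, is that of Tug1, with a mean of 6.81, 6.82 and 7.08 against 6.89, 7.09 and 7.13. The other, at chr16:43637113-43642004 and 7.11 kb from the probe of the immune receptor gene Tigit, was lower in TCE mice in 15 of its 16 members, with a mean of 9.63, 9.54 and 9.34 against 9.36, 8.98 and 9.24. The groups overlapped in each of these 3 loci, and none of their means was past the threshold.

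Some of the array's lincRNA probes carry the name of a known RNA. All 5 Neat1 probes, all 3 Malat1 probes and all 5 Tug1 probes were members, as were 1 of 5 for Hotair and 1 of 5 for Nron. None of the probes named for H19, Kcnq1ot1, Tsix, Xist, Pinc, lincP21 or Brn1-A was. The Neat1 probes averaged 11.02, 11.06 and 11.23 in controls and 11.17, 10.37 and 11.41 in TCE mice. TCE mouse 2 was lowest and TCE mouse 3 highest, so that the groups overlapped. The Malat1 probes averaged 6.10, 6.23 and 6.10 against 6.38, 5.82 and 6.05, again with TCE mice on both sides of the controls. The Malat1 probes lie at the 3′ end of the interval given for this RNA. Members of the same locus, 2 on the forward and 10 on the reverse strand, reached a signal of 14.97, so that the level differed between probes. The reason for this was not tested.

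The Tug1 probes averaged 7.58, 7.21 and 7.45 in controls and 7.61, 7.74 and 7.93 in TCE mice. Each of the 3 TCE values lay above the controls, by little in TCE mouse 1. The array has 3 more Tug1 probes outside the class, above background on all arrays, with log2 differences of 0.26, -0.01 and -1.07 and adjusted p of 0.225 or more with limma, so that the probes of this RNA differ in direction. The 5 Tug1 members had log2 differences of 0.29 to 0.44, and none of the 5 had an adjusted p of 0.05 or less. The single Nron member had a log2 difference of -0.36 and the single Hotair member one of -0.11, and both groups overlapped in each. Outside the class, 20 of the 27 listed non-coding RNA genes with an array probe were detected through 26 probes, which include Gas5, Snhg1, Snhg3, Snhg6, Zfas1, Airn, Rmrp and Meg3. With limma, 0 of these 26 had an adjusted p of 0.05 or less and 5 had an unadjusted p under 0.05, a level reached by 17.9% of all probes tested.

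TCE and control livers were compared over all 22736 probes that were well above background on every array of at least 1 group. The log2 difference of the 2548 lincRNA probes centered on 0: its median was -0.001, its quartiles were -0.21 and 0.19, and 1270 members (49.8%) were higher in TCE mice. Over the 18276 other probes above background on all arrays the median was 0.02 and 53.1% were higher, and over all probes tested the median was 0.02 and 52.4% were higher. The share of members higher in TCE mice moved to 45.5% without control mouse 1, which also leaves only the arrays of the shared slide. It was 45.3% without TCE mouse 2, 53.3% without TCE mouse 3, and between these when any of the remaining mice was left out.

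The direction differed by level within the class. Of the 1911 members with a mean signal below 9, 52.4% were higher in TCE mice, with a median difference of 0.02, and of the 637 at or above it 42.1% were, with a median of -0.06. Among the other probes these shares were 54.7% and 51.8%. The 30 members without a position were lower in TCE mice in 22 cases, with a median of -0.11. These shares and medians are descriptions, and the differences between levels were not tested.

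The standard deviation of the log2 differences was 0.40 in the class, 0.41 over the other probes above background on all arrays and 0.49 over all probes tested. In 60.3% of the members the groups differed by less than 1.2-fold. The members varied more between mice of one group, with a median standard deviation of 0.27 against 0.19 for the other probes. Dim probes vary more, but the gap remained at equal signal: from 6 to 7 the medians were 0.31 and 0.28, from 8 to 9 they were 0.24 and 0.20, and from 10 to 11 they were 0.21 and 0.17. The difference between the classes at equal signal was not tested.

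In 481 members (18.9%) the values of the groups did not overlap, with TCE mice higher in 240 and lower in 241, against 25.7% of all probes tested. A total of 62 members (2.43%) differed by 2-fold or more, 11 of them higher and 51 lower. The same holds for 4.55% of all probes tested, 498 higher and 536 lower, and for 2.95% of the other probes above background on all arrays, 267 higher and 273 lower. Most of these did not reach the adjusted p. The lowest difference of the class, -2.37 in A_30_P01028332 on chromosome 4, rested on readings of 10.90, 10.61 and 10.57 in controls and 8.38, 6.10 and 10.51 in TCE mice, where TCE mouse 3 was close to the controls (limma adjusted p = 0.293). This probe was picked after its value was seen.

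**Figure D3:**
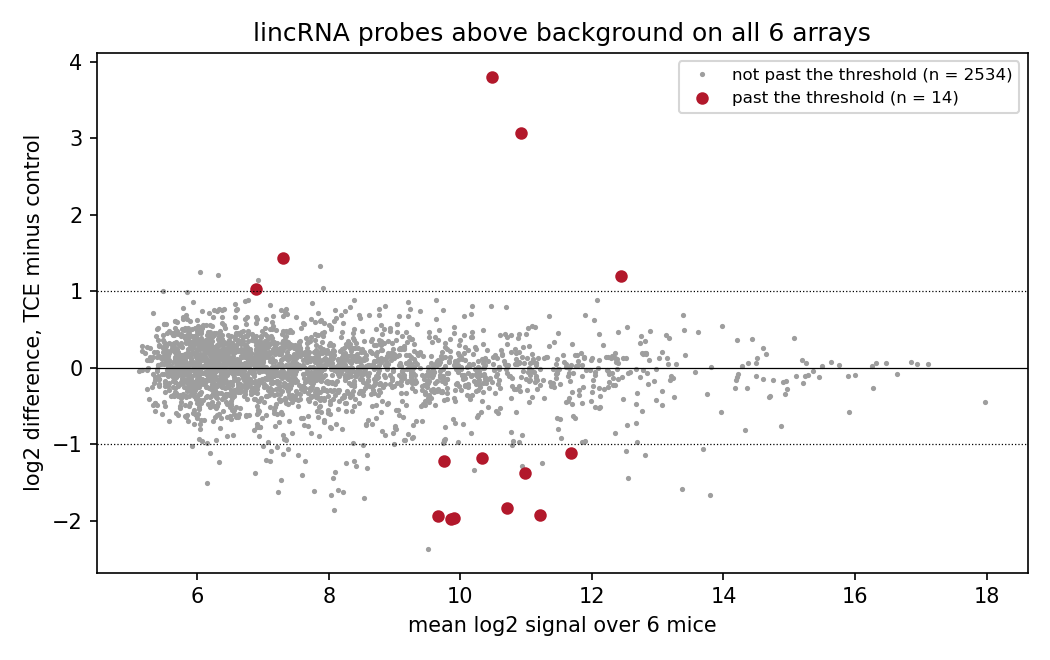
Log2 difference of TCE minus control against mean log2 signal for each of the 2548 lincRNA probes. The 14 probes past the threshold are filled red, 5 above 0 and 9 below, and the dotted lines mark 2-fold. Most points lie within 0.21 of 0, and those beyond the lower line outnumber those beyond the upper one, 51 to 11, where the other probes above background on all arrays divide into 273 and 267.

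Past the threshold of a limma adjusted p of 0.05 or less and 2-fold there were 14 members, 5 higher and 9 lower in TCE mice. That is 0.549% of the class, where 1.41% of all probes tested were past it, 1.03% higher and 0.383% lower. All probes tested include those detected in only 1 group. Of the 18276 other probes above background on all 6 arrays, 199 (1.09%) were past it, 139 higher and 60 lower. Among probes with a mean signal below 9, 2 of 1911 members were past the threshold against 83 of 8130 other probes, and at or above it 12 of 637 members against 116 of 10146. At an adjusted p of 0.05 or less with no limit on the fold there were 31 members (1.22%), 12 higher and 19 lower. The share was 1.70% over the other probes above background on all arrays and 2.01% over all probes tested. The 14 probes came from 8 loci, and with the mean of each locus as the unit 3 loci were past the threshold, 2 higher and 1 lower.

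Fewer of the 14 calls remained whichever mouse was left out. Each of these fits has 1 mouse fewer and so less power, and a lost call does not mark that mouse as its source. The log2 difference of A_30_P01020518, whose call was lost in all 6 fits, stayed between 1.06 and 1.38. Of the 14, 5 remained without control mouse 1, 8 without control mouse 2, 4 without control mouse 3, 4 without TCE mouse 1, 7 without TCE mouse 2 and 6 without TCE mouse 3. A_30_P01018914, A_30_P01021780 and A_30_P01022043 remained past the threshold in all 6 of these fits, and 0 of the 14 changed direction in any alternative.

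Of the 5 rises past the threshold, 3 lay in adjoining probes on the forward strand of chromosome 9, from 78116774 to 78116953. A_30_P01018914 read 8.15, 8.67 and 8.90 in controls and 12.78, 12.57 and 11.79 in TCE mice. It rose by 3.81 (SE 0.31, limma adjusted p = 0.00487), or 14.0-fold. A_30_P01028766 read 9.0, 9.31 and 9.84 in controls and 12.96, 12.51 and 11.89 in TCE mice, a rise of 3.07 (SE 0.33, limma adjusted p = 0.0122). In both, every TCE mouse was far above every control mouse, and TCE mouse 3 was the lowest of its group.

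A_30_P01020518 read 11.73, 11.59 and 12.22 in controls and 13.03, 13.29 and 12.81 in TCE mice. It rose by 1.2 (SE 0.21, limma adjusted p = 0.0494), and this call was lost when any 1 mouse was left out. The fourth member of the locus lies apart, and had a log2 difference of -0.14. All 60 bases of A_30_P01028766 equal those of the Gsta1 probe, which the array places 26.4 kb away on the same strand. The Gsta1 probe read 9.03, 9.13 and 9.69 in controls and 12.75, 12.46 and 11.78 in TCE mice, a log2 difference of 3.05, so that both probes gave nearly the same value in each mouse. Gsta1 encodes a glutathione S-transferase, an enzyme that conjugates foreign compounds. Of the probes of the related Gm10639, 1 shares 29 bases with A_30_P01028766 and rose by 2.06, and another, which shares 20 bases with A_30_P01018914, had a log2 difference of 0.32 (limma adjusted p = 0.623). The probe A_55_P2017116, which has no gene name here, shares 23 bases with A_30_P01018914 and 20 with A_30_P01020518, and had a log2 difference of 3.73 while above background on 3 arrays. A_30_P01028766 therefore cannot be told apart from the Gsta1 probe by sequence. A_30_P01020518 and A_30_P01018914 lie directly before A_30_P01028766 on the same strand, without a gap. Whether they measure RNA of the same gene family was not tested, so that these rises cannot be assigned to a lincRNA.

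A_30_P01021780 on chromosome 19 read 6.60, 6.73 and 6.44 in controls and 8.07, 7.88 and 8.13 in TCE mice, a rise of 1.43 (SE 0.13, limma adjusted p = 0.00735). The groups were narrow and wide apart. Its nearest gene probe, of Gm7102 at 23.1 kb on the other strand and above background on 5 arrays, had a log2 difference of -0.83. A_30_P01032418 on chromosome 14 read 6.30, 6.59 and 6.24 in controls and 7.6, 7.46 and 7.18 in TCE mice. It rose by 1.04 (SE 0.16, limma adjusted p = 0.0369), a call that held in 1 of the 6 fits that each drop a mouse. The other members of its locus had log2 differences of 0.89 and -0.08, and the locus mean one of 0.62 (limma adjusted p = 0.0853). A_30_P01032418 lies 1.28 kb from the probe of Zfhx2, a zinc finger homeobox gene, which was above background on 4 arrays and had a log2 difference of -0.72.

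The 5 largest falls among the probes past the threshold were the 5 members of one locus on the reverse strand of chromosome 17, from 32044827 to 32045145. Per mouse the mean of the 5 probes was 11.33, 10.75 and 11.61 in controls and 8.97, 9.57 and 9.37 in TCE mice. All controls were above all TCE mice. The probes fell by 1.83 to 1.97 each, with A_30_P01021437 falling by 1.97 (SE 0.24, limma adjusted p = 0.0183) and A_30_P01019807 by 1.83 (SE 0.30, limma adjusted p = 0.0386). The mean of the locus fell by 1.93 (SE 0.26, limma adjusted p = 0.0253). The array carries 7 lincRNA probes in this stretch, and the other 2 were not members. The 5 probes measure neighbouring or overlapping bases and are not independent of each other. Each of them lost its call in 4 or 5 of those 6 fits, with adjusted p up to 0.128. The nearest gene probe, of Hsf2bp at 36.6 kb, was above background on 0 arrays. The probe of Sik1, a kinase gene on the same strand 63.5 kb away that was chosen after its value was seen, had a log2 difference of -0.06 (limma adjusted p = 0.944).

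**Figure D4:**
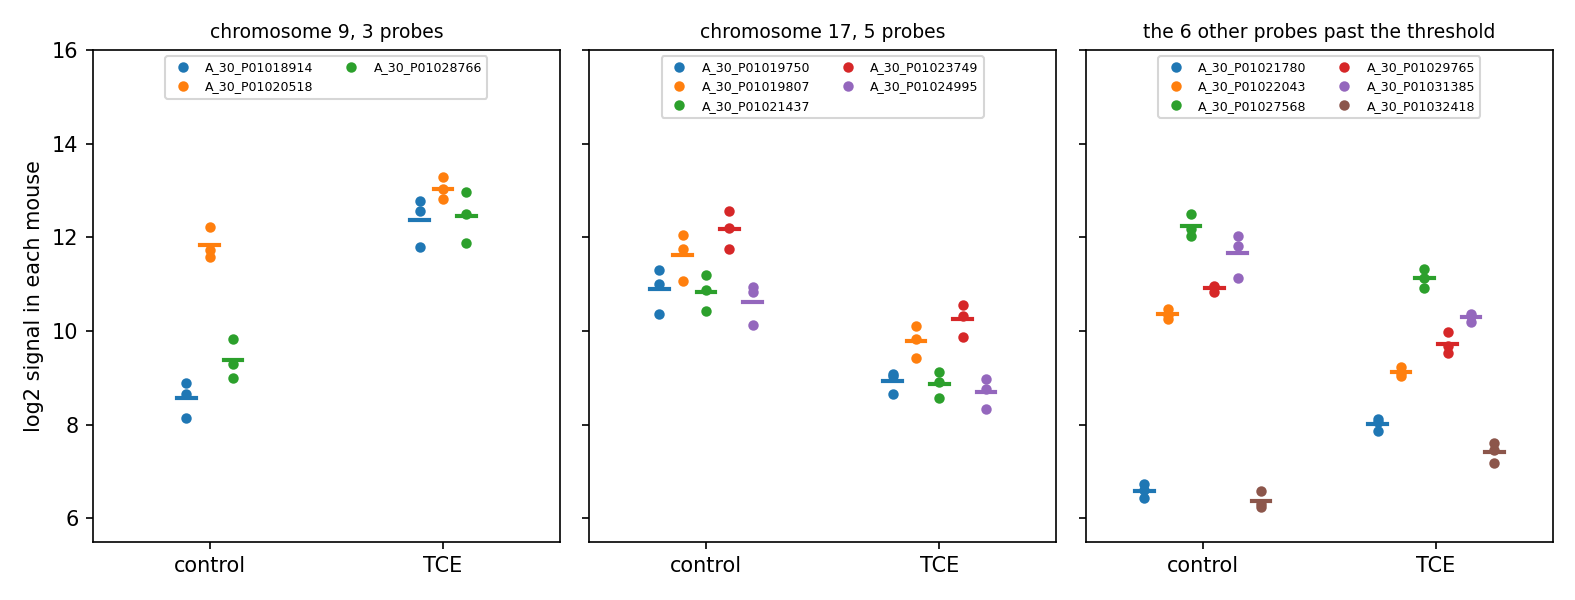
Log2 signal of the 14 lincRNA probes past the threshold in each of the 3 control and 3 TCE mice, with points for mice and bars for group means. The 3 probes of chromosome 9 lie higher and the 5 of chromosome 17 lie lower in every TCE mouse, and no probe shows overlapping groups.

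The 4 other probes past the threshold fell by less and are named because they complete the count. A_30_P01022043 on chromosome 7 read 10.26, 10.46 and 10.35 in controls and 9.05, 9.12 and 9.23 in TCE mice, a fall with a log2 difference of -1.22 (SE 0.12, limma adjusted p = 0.00827). The other member of its locus, on the same strand, had a log2 difference of -0.07, and the locus mean one of -0.65 (limma adjusted p = 0.0881). A_30_P01029765 on chromosome 6 had a log2 difference of -1.18 (SE 0.15, limma adjusted p = 0.0191). The other member of its locus, on the other strand, had one of -0.09, and the locus mean one of -0.64 (limma adjusted p = 0.0516). A_30_P01027568, also on chromosome 6 at 129182657, had one of -1.11 (SE 0.17, limma adjusted p = 0.036), and 3 more members of its locus had an adjusted p of 0.05 or less, with differences of -0.92 to -0.97. These 4 lie on the reverse strand between 129182657 and 129182984, 19.1 kb from the probe of 2310001H17Rik, which was above background on 5 arrays and had a log2 difference of -0.77. The fourth probe, A_30_P01031385, belongs to the Dancr locus.

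The Dancr locus, at chr5:74489483-74490334, had 10 members and all were lower in TCE mice, with a median log2 difference of -0.85. Dancr is a long non-coding RNA known for its role in keeping progenitor cells undifferentiated. Per mouse the mean of the members was 9.43, 9.58 and 9.77 in controls and 8.73, 9.10 and 8.60 in TCE mice, and the groups did not overlap. The mean difference of the locus was -0.78 (SE 0.17, limma adjusted p = 0.0853), short of the threshold, and single members ranged from -0.04 to -1.37. A_30_P01031385, the member past the threshold, read 11.14, 11.82 and 12.04 in controls and 10.32, 10.37 and 10.19 in TCE mice (limma adjusted p = 0.0485). A_30_P01020357 has the same 60 bases as the Dancr probe, and the pair gave log2 differences of -0.85 and -0.62.

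Among loci of 3 or more members of one sign, the chromosome 17 and Dancr loci had the lowest and the next but one median. Between them was a locus at chr16:23994571-23995345, with 7 members and a median of -1.37. Its mean was 7.32, 7.91 and 8.22 in controls and 6.92, 6.31 and 6.75 in TCE mice, where TCE mouse 2 was lowest. The 5 members on the forward strand had differences of -1.22 to -1.62 and the 2 on the reverse strand -0.30 and -0.62. None was past the threshold (locus mean -1.16, SE 0.27, limma adjusted p = 0.0967). The nearest gene probe, 29.4 kb away on the reverse strand, was that of the transcriptional repressor Bcl6, with a log2 difference of -0.49 (limma adjusted p = 0.585).

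The highest medians among loci of 3 or more members of one sign lay on chromosomes 4 and 6. The locus at chr4:86272947-86275372 had 4 members and a median of 0.87, with means of 6.23, 6.67 and 6.08 in controls and 6.67, 7.31 and 7.17 in TCE mice. The lowest TCE mean equaled the highest control mean to within 0.01. The nearest gene probe, of Haus6, was not measurable, and the next, chosen after its value was seen, was that of Plin2 at 27.5 kb from the closest member. Plin2 encodes a coat protein of lipid droplets and is a target of PPARalpha, the nuclear receptor that controls fatty acid oxidation in liver. Its log2 difference was 0.97 (limma adjusted p = 0.0649), and the locus mean had one of 0.73 (limma adjusted p = 0.171).

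The locus at chr6:122741589-122742200 had 3 members with a median of 0.80. Its mean was 11.45, 11.53 and 11.76 in controls and 12.49, 12.24 and 12.40 in TCE mice, with no overlap, and the rise of 0.79 (SE 0.13) had a limma adjusted p of 0.0436 but was under 2-fold. Its member A_30_P01033408 shares 36 bases with a probe of Uck1 on chromosome 2, which had a log2 difference of 0.41 (limma adjusted p = 0.279). The third locus, at chr4:146531458-146531841, had 5 members with a median of 0.65. A probe of Baz1a on chromosome 12 shares 58 bases with its member A_30_P01024929, and both read 8.47 on average over 6 mice. Their log2 differences were 0.65 and 0.64, and neither was past the threshold.

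Sequence shared with other probes was not limited to these loci. A run of 20 bases or more was identical to a probe outside the class, in the same orientation, in 113 members, and to the opposite strand of one in 64. In 102 pairs in the same orientation the other probe was also above background on all arrays. Across them the signals correlated with r = 0.90 and the log2 differences with r = 0.68, as a description of pairs that share bases and arrays. For 25 pairs all 60 bases were equal. The members of such a pair differed by a median of 0.11 in signal and 0.14 in log2 difference, with the largest gap in log2 difference at 1.16. These gaps measure the technical error between spots of one sequence.

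A gene probe above background on all arrays lay within 10 kb of 686 members, near 227 genes. None of these gene probes was past the threshold, and 1 of the 686 members was. Over all probes tested 1.41% were past it, and over the class 0.549%. With shares this low, the counts cannot be read as particular to these pairs. In 498 pairs the gene probe was on the strand of the lincRNA probe. Within 2 kb on the same strand, 157 of 228 pairs (68.9%) had differences of one sign and r was 0.58. Without the 41 pairs that share 20 bases or more r was 0.54 over 187 pairs. Within 2 kb on the opposite strand 40 of 64 pairs (62.5%) had one sign and r was 0.41. From 2 to 10 kb the sign was shared by 55.6% of 270 pairs on the same strand and by 62 of 124 pairs on the opposite strand, and r was 0.06 and 0.05. Several members often share 1 gene probe and all pairs share the same arrays. Over all distances up to 10 kb, r was 0.26 over the 498 pairs on the same strand and 0.15 over 188 on the opposite strand. With 1 pair per gene at these distances r was 0.19 over 169 genes on the same strand and 0.16 over 113 on the opposite strand. The 228 pairs within 2 kb on the same strand came from 75 genes, and r with 1 pair per gene is not given for them.

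**Figure D5:**
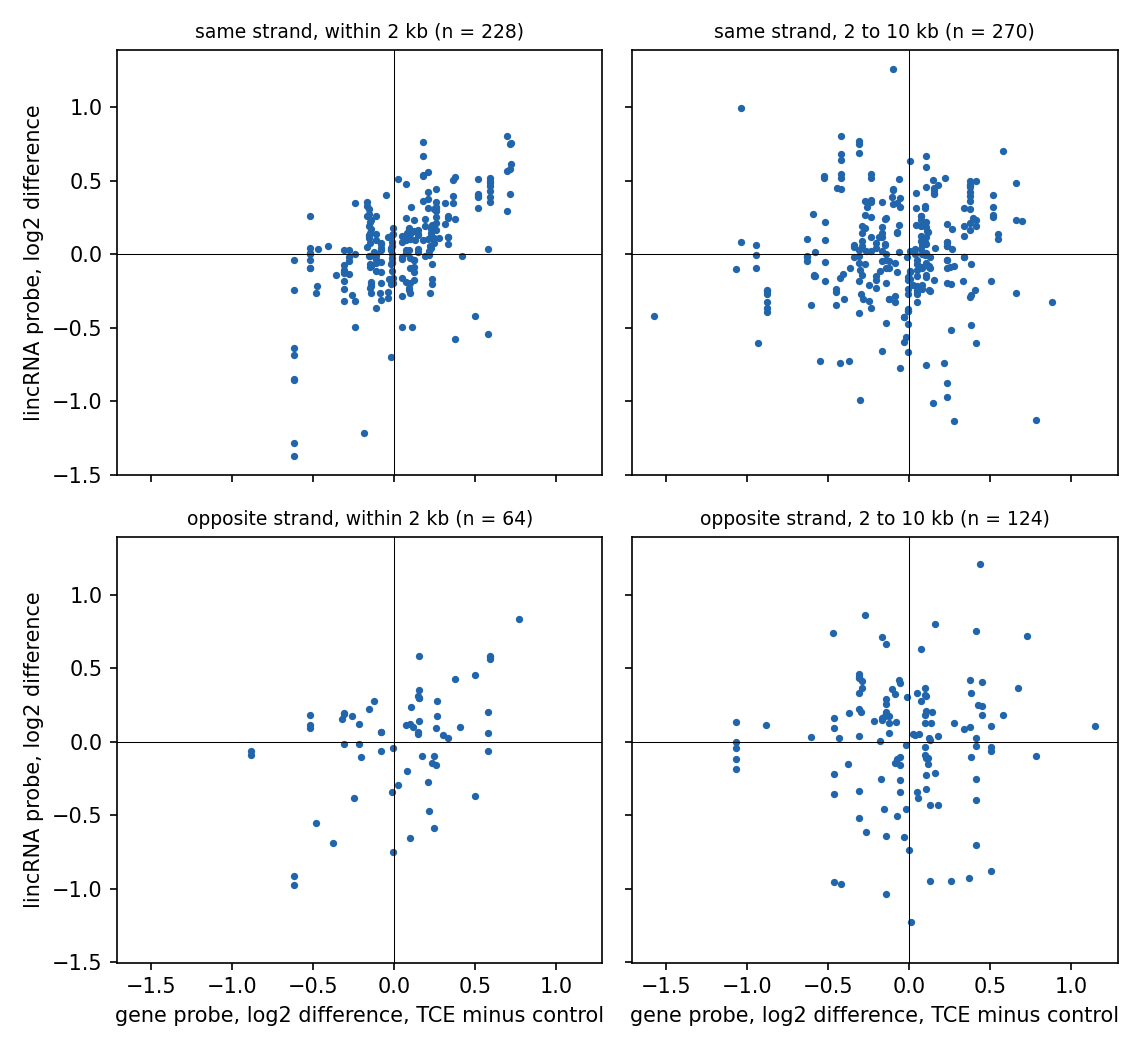
Log2 difference (TCE minus control) of each lincRNA probe against that of the nearest gene probe within 10 kb, split by strand and by distance. Within 2 kb on the same strand the points slope upward (r = 0.58) and 157 of 228 pairs have one sign, and from 2 to 10 kb r is 0.06 and 0.05.

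Members were looked for near listed genes that respond to compounds of this kind in liver and near secreted liver proteins. Genes of any kind seldom had a member so near. The nearest gene probes within 10 kb came from 227 genes, where 15331 gene probes with a position were above background on all arrays. Of 50 listed PPARalpha targets and 58 P450 genes of the drug-metabolizing families, 0 had a member within 10 kb, and of 36 secreted liver proteins with a probe 1 did, Serpinc1 (antithrombin), with 2 members at log2 differences of 0.37 and 0.41. These 2 members were not past the threshold. With so few genes near a member at all, the low counts cannot be read as particular to these lists. Farther out, A_30_P01022784 lies on the 1300002E11Rik gene, with readings of 8.64, 8.37 and 8.34 in controls and 9.30, 9.25 and 9.21 in TCE mice and a rise of 0.80 (SE 0.13, limma adjusted p = 0.0369) that was under 2-fold. All 4 members of this locus were higher in TCE mice, and the 1300002E11Rik probe that shares 53 bases had a log2 difference of 0.70. The probe of Ehhadh, a peroxisomal enzyme of fatty acid oxidation and a PPARalpha target, lies 32.5 kb from the closest member of the locus and rose by 3.26 (limma adjusted p = 0.000767). This gene was chosen after its value was seen.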

How the data were processed

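Liver RNA of 3 control and 3 TCE mice was measured on 1-colour arrays. The authors extracted the spots with Agilent Feature Extraction 10.7.1.1, and the deposited intensity is background-subtracted and detrended. The authors' table holds quantile-normalized log2 group means, used as an alternative, and fold changes and P values, not used. Outlier spots were dropped, log2 was taken without adding a pseudocount and the arrays were quantile normalized over 55681 non-control probes. The group means lay within 0.01 of the deposited ones for 2547 of 2548 members. LincRNA probes flagged well above background on all 6 arrays were kept. Probes detected on all arrays of 1 group or more entered a two-sided limma fit (version 3.58.1, R 4.3.3), with adjustment by Benjamini-Hochberg. The procedure was tested on simulated data. Probe positions (mm9) come from the deposited annotation. Gene symbols matched RefSeq (GRCm38 table) for 29472 of 39430 other probes. The 6 arrays limit the precision: permuting 3 against 3 mice exactly gives p of 0.1 at the least. The members and lists were chosen with earlier results of these data known. Named are the 5 largest rises and falls past the threshold, the brightest members, the loci with most members and with extreme medians of one sign, members just inside and outside the criterion, and the nearest gene probes. Others are marked where named. A bright member and a cell type marker above background on 0 arrays are not reported here. The alternatives were 75th percentile scaling, normexp (offset 50), outlier spots kept, each mouse left out, blocks, other filters and variance models, the methods' t-test, other joining distances and a weaker detection flag.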

Additional observations from a re-analysis of the deposited data

How the results depend on the processing

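The 14 lincRNA probes past the threshold were 13 to 16 under 75th percentile scaling, normexp, outlier spots kept, a test of the probes above background on all arrays, and eBayes with trend and robust. The count was 4 to 13 when 1 mouse was left out, 6 with the slide as a block, 3 with no filter on dim probes (more probes tested), 3 with loci as the unit (fewer units), 31 with no fold threshold, 30 with the methods' t-test unadjusted and 1 with that test adjusted. The mouse numbers do not pair the animals: the deviations of same-numbered mice correlated with r = 0.09, 0.01 and -0.09, and with the replicate number as a block limma called 0 members, with 350 at an unadjusted p under 0.05. The median and the share of members higher in TCE mice moved by less than the spread between mice in every alternative run, and 0 of the 14 named differences reversed. The standard deviation of the differences was 0.31 with normexp, against 0.40 as reported and 0.40 to 0.46 in the other alternatives run. The number of loci was 1389 and 948 with joining distances of 1 and 50 kb, and 1750 with the weaker detection flag, under which 4908 probes qualify. Signals near background and the 3 mice per group limit what could be detected.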
